A study of Homo sapiens with 4 samples.

Results

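The untreated parental lines HN30 and HN4, both established lines of human head and neck squamous cell carcinoma (HNSCC), were compared with each other to describe how they differed before any resistance was selected. The comparison used 2 of the 4 samples of the series, 1 array of each line, and took in every gene name with a probe outside chromosomes X and Y, which gave 41786 of 43317 gene names. Neither parental culture received drug, and both were kept in serum-supplemented DMEM. HN4/DDP and HN30/DDP are their derivatives selected for cisplatin resistance by stepwise exposure to this platinum drug, and by the labels they were given 20 μM for 48 h. The study was built to compare each resistant line with its own parent, and its labels make each parental line the control of the resistant line derived from it. The resistant arrays serve here to show whether a difference between the parents was also present between their derivatives.

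Each sample was a single culture measured on a single array, so no difference between HN30 and HN4 has a replicate check and none was tested. All 4 arrays were on 1 slide, scanned once. The brightness of a spot at the 75th percentile was 494 in HN4 and 444 in HN30, and the genes well above background numbered 23951 in HN4 and 23143 in HN30. A level below is the log2 signal of a gene minus the 75th percentile of its array, and a difference is the HN30 level minus the HN4 level unless stated otherwise. The scanner SD given with a difference comes from the error that the scanner software assigned to each spot, and it leaves out the variation between cultures. In whole cultures, fewer cells of a type and less RNA per cell cannot be told apart.

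Squamous carcinoma cells keep much of the program of the stratified epithelium they come from. Basal keratinocytes make the keratins KRT5 and KRT14, stressed or activated keratinocytes add KRT6, KRT16 and KRT17, and cells that leave the basal layer turn to proteins of the cornified envelope. Lines of this tumour can also differ in interferon signalling, in lipid synthesis and in features of mesenchymal cells, which are commonly read as signs of cell state. Both lines carried the squamous identity that the labels give them. All 12 squamous markers (KRT5, KRT14, TP63, DSG3 and others) were well above background in HN4 and in HN30, and their summed linear signal, in units of the 75th percentile, was 211 in HN4 and 194 in HN30. Of 14 leukocyte markers, 8 were well above background in HN4 and 9 in HN30, with summed signals of 14.4 and 12.9. Of 10 endothelial markers 3 and 2 were, of 10 fibroblast markers 3 and 3, of 7 smooth muscle markers 5 and 5, and of 10 melanocyte and neural markers 3 and 3, with the count in HN4 given first. The summed fibroblast signal was 4.73 in HN4 and 1.90 in HN30, most of it from FAP. The levels of PTPRC, which encodes the leukocyte antigen CD45, were -2.84 in HN4 and -3.10 in HN30.

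The parental lines were close to each other. Of the 22093 genes well above background in both, 94.0% differed by less than 1 on the log2 scale, the median difference was 0.05 and the SD of the differences was 0.54. For comparison, the median scanner SD of a difference over the same genes was 0.21. With the study's threshold, a log2 difference beyond 2, and the requirement that the brighter array was well above background, 225 genes were counted as higher in HN30 (0.538% of the genes measured) and 456 as higher in HN4 (1.09%). Together these were 681 genes, 1.63%. With a threshold of 1, the counts were 827 (1.98%) and 1755 (4.2%). The share of counted genes that were higher in HN30 was 33.0%. Much of each count rested on dim genes, since 177 of the 225 and 310 of the 456 were dim on the other array, and after a background correction that lifts the dim end of the scale (normexp) only 21 and 48 genes passed.

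**Figure D1:**
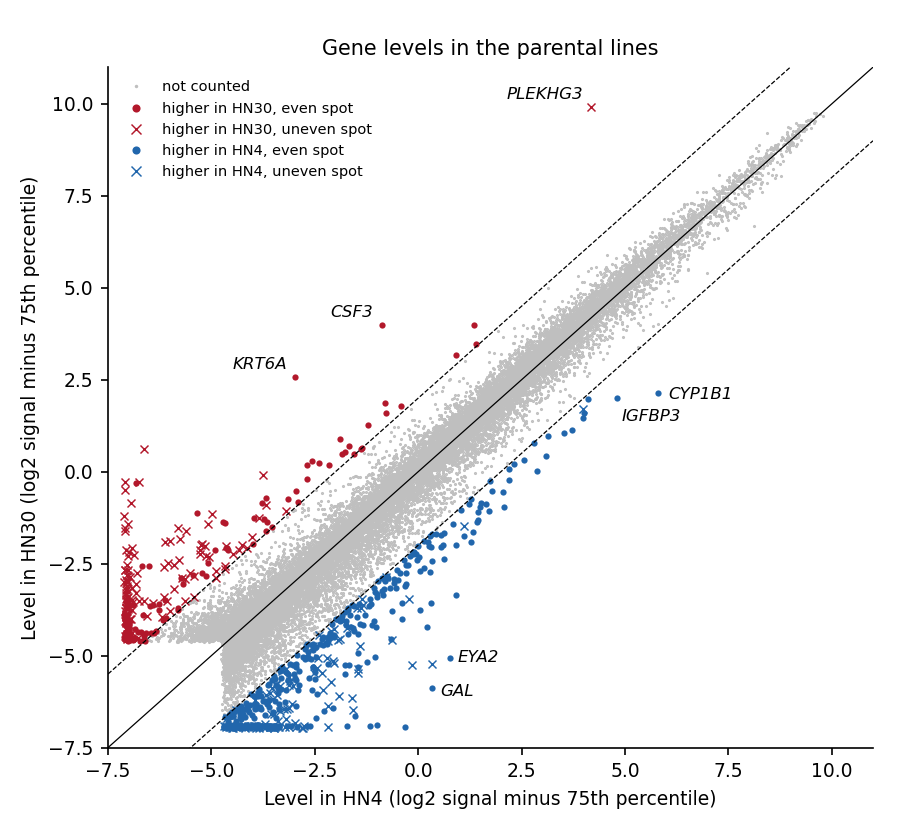
Level of each gene in HN4 (x axis) and HN30 (y axis), log2 signal minus the 75th percentile of the array, for 25001 genes that the scanner called well above background on either array. The solid line marks equal levels, the dashed lines a difference of 2 either way, dots are counted genes on even spots and crosses counted genes on uneven spots, and most counted genes lie at the dim end of both axes.

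Of the 6 pairs of arrays that the series allows, HN4 and HN30 were the most alike. Between HN4 and HN4/DDP 1493 genes (3.57%) passed the threshold in either direction, and between HN30 and HN30/DDP 3059 (7.32%). HN30 and HN4/DDP were apart by 1874 genes (4.48%), HN4 and HN30/DDP by 2274 (5.44%), and the resistant lines by 2283 (5.46%). Across the 21414 genes well above background on all 4 arrays, the correlation between levels was 0.986 for HN4 and HN30 and 0.942 to 0.969 for the other pairs. These are correlations across genes, which are not independent replicates, and the pairs share arrays. Each parental line thus lay nearer on these arrays to the other parental line than to the resistant line derived from it. How far cisplatin given to the resistant cultures contributed to this order cannot be told apart from the selection for resistance, since only these cultures received it. Whether the cultures differ in genotype was not tested.

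**Figure D2:**
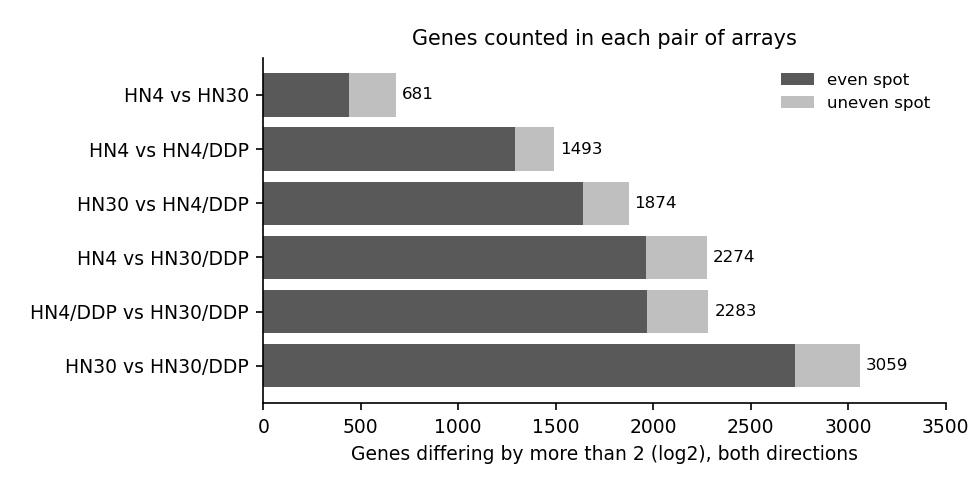
Number of genes with a log2 difference beyond 2 in either direction, counted with the brighter array well above background, for each pair of the 4 arrays. Dark bars are genes whose spot on the brighter array had an even pixel signal and light bars genes on uneven spots, and the parental pair has the fewest of the 6, 681 genes.

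Part of the counted genes lay on spots with an uneven surface. A spot was called uneven when the SD of its pixels over their mean was far above that of spots of like brightness on the same array, which held for 1.89% of the genes well above background in HN30 and 1.76% in HN4. Among the genes counted as higher in HN30 it held for 128 of 225, or 56.9%, and among those higher in HN4 for 112 of 456, or 24.6%. The counted genes were also gathered at one edge of the array, since 95 of the 225 and 95 of the 456 lay in the last 48 of 384 rows, which hold 12.4% of all genes. What left these spots uneven was not tested. The clearest case is PLEKHG3, a guanine nucleotide exchange factor, with levels of 4.19 in HN4 and 9.91 in HN30 on its uneven spot. A second probe that overlaps the first in most of its sequence (hg19 chromosome 14, 65210966 to 65211025, against 65210943 to 65211002) read 4.47 and 4.23. KCNK17, SLC45A1, EQTN, CNTNAP2, MEX3B and SERPINB7 were also among the genes furthest apart, at least 9.45-fold (MEX3B) to 41.5-fold (KCNK17) higher in HN30, and were all dim in HN4 and on uneven spots in HN30. The second KCNK17 probe was dim on both arrays. On even spots 97 genes were higher in HN30 and 344 in HN4, of which 35 and 130 were well above background on both arrays, so the share higher in HN30 was lower there, 97 of 441 genes. The genes described below lay on even spots on the brighter array unless stated.

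The epithelial program differed between the lines in a small set of keratins, while most of its genes did not pass the threshold. Of 42 genes of the basal keratinocyte and squamous lineage, 4 were counted as higher in HN30 (KRT6A, KRT6B, KRT14 and KRT17). Another 2, FGFBP1 and DSC3, were counted as higher in HN4. The shares over all genes measured were 0.538% and 1.09%. The median difference of the list was -0.05, beside 0.10 for all genes measured. KRT6A, a keratin of activated keratinocytes, had levels of -2.97 in HN4 and 2.57 in HN30, a difference of 5.54 (scanner SD 0.22), or 46.5-fold. It was at 0.35 in HN4/DDP and dim at -5.87 in HN30/DDP, so HN30 was the highest of the 4 arrays. Its probe lies on hg19 chromosome 12 from 52881087 to 52881146 on the minus strand. KRT6A is nearly identical to KRT6B and KRT6C, so the 3 probes may share signal. KRT6B was at -1.22 in HN4 and 1.26 in HN30. KRT6C, which was not in the list and was dim in HN4, was at least 12.6-fold higher in HN30. The probes of all 3 were brighter in HN30.

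KRT14, the partner of KRT5 in basal cells, was at -2.68 in HN4 and 0.17 in HN30, a difference of 2.85 (scanner SD 0.22). A second KRT14 probe, at the dim end of the scale, read -4.72 and -4.85, and the mean of both probes differed less. KRT17 was at -1.78 in HN4 and 0.54 in HN30. KRT5 itself (2.79 and 2.84), KRT16 (a difference of 0.04) and TP63, the master regulator of the basal layer (-0.77 and -0.81), were at nearly the same level in both lines. In the other direction, FGFBP1, a carrier protein that releases fibroblast growth factors from the matrix, was at 2.06 in HN4 and -0.56 in HN30. DSC3, a desmosomal cadherin, was at -0.81 and -2.98, and its second probe differed by -2.03.

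Of 58 genes of keratinocyte terminal differentiation, 3 were counted as higher in HN4 and 1 as higher in HN30. The shares over all genes measured were 1.09% and 0.538%. CALML5, a calmodulin-like protein of differentiating epidermis, was at 1.44 in HN4 and -1.30 in HN30. SCEL, the cornified envelope protein sciellin, was at -0.59 and -3.02. MAL was at -3.08 in HN4 and dim in HN30, which makes it at least 2.92-fold higher in HN4. KLK13, the member higher in HN30, lay on an uneven spot. The small proline-rich proteins and S100 proteins that make up much of the envelope program did not pass, with differences of 0.64 for SPRR1B, 0.25 for SPRR2A and 0.97 for S100A8. Of 31 glandular and simple epithelial genes the median difference was -0.04, and over the 21 of them that were well above background it was -0.70, with MUC20, which has a near-identical pseudogene, counted (at least 7.26-fold higher in HN4) and MUC1, KRT19, GATA3 and ELF3 between -1.90 and -1.37. Of 34 genes of epithelial junctions none was counted, while CDH1, which encodes E-cadherin, was lower in HN30 by a difference of -1.13.

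Mesenchymal and contractile genes were higher in HN30 for a few members only. Of 43 such genes, 3 were counted as higher in HN30 and none as higher in HN4, with a median difference of 0.13. Over all genes measured the shares were 0.538% and 1.09% and the median difference was 0.10. TAGLN, an actin-binding protein of smooth muscle, was at -1.89 in HN4 and 0.88 in HN30, a difference of 2.77 (scanner SD 0.21), and its second probe differed by 2.70. CCN2, a matrix protein also called connective tissue growth factor, was at -2.68 and -0.19. CDH2, which encodes N-cadherin, was at -1.84 and 0.49, and its second probe differed by 1.71. VIM (0.89), SNAI1 (1.22) and ZEB1 (0.96, dim on both arrays) did not pass, and S100A4 (-1.51) and FAP (-1.40) leaned to HN4. FN1, which encodes fibronectin, was dim in HN30 and at least 2.86-fold higher in HN4. No collagen, integrin or laminin gene was counted. The integrins and laminins had a median difference of -0.32 over 27 genes well above background.

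Among 39 cytokines and chemokines, 2 were counted, both higher in HN30. Of all genes measured, 0.538% were counted as higher in HN30 and 1.09% as higher in HN4. CSF3, which encodes the granulocyte colony-stimulating factor G-CSF, was at -0.88 in HN4 and 3.98 in HN30, a difference of 4.86 (scanner SD 0.20), or 29.0-fold. It was at -1.75 in HN4/DDP and 1.28 in HN30/DDP, so that both HN30 lines were above both HN4 lines. Its probe lies on hg19 chromosome 17 from 38173710 to 38173769, and the second probe of the gene differed by 4.36. TNF was at 0.91 in HN4 and 3.19 in HN30. The neutrophil chemokines CXCL2, CXCL3 and CXCL8 were higher in HN30 by 1.86, 1.57 and 1.08, which is under the threshold. IL1RN, the interleukin-1 receptor antagonist, was lower in HN30 by a difference of -1.70, and IL6 by -1.34. The immediate early gene EGR1 was at 1.36 in HN4 and higher in HN30 by 2.64, or 6.23-fold, and ID3, an inhibitor of basic helix-loop-helix factors, at -0.78 and 1.61. MMP3, the protease stromelysin-1, and FGF9, a fibroblast growth factor, were dim in HN4 and at least 1.67-fold and 1.83-fold higher in HN30.

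The other large differences toward HN30 among messenger RNAs well above background in both lines were those of PABPC4L (-3.67 in HN4 and -0.71 in HN30), TFF2, a secreted trefoil peptide of mucous cells (-3.78 and -0.85), AJAP1, a membrane protein of adherens junctions (-2.57 and 0.29), HAS3, a hyaluronan synthase (-2.40 and 0.24), and CDH12, a cadherin first known from brain (-4.64 and -2.07). Of these, HAS3 has a second probe that differed by 0.15. AJAP1 has a second one that differed by 3.49. Genes dim in HN4 had only a bound. MYO3B, a class III myosin, was at least 10.1-fold higher in HN30, LHFPL6 at least 4.60-fold, ANXA10 at least 4.02-fold, BMERB1 at least 3.82-fold, DSEL at least 3.65-fold and ACTG2, the smooth muscle gamma actin, at least 3.26-fold. HSD17B3 had a bound of 3.83-fold, although the difference of 1.94 on its brightest probe did not pass the threshold.

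**Figure D3:**
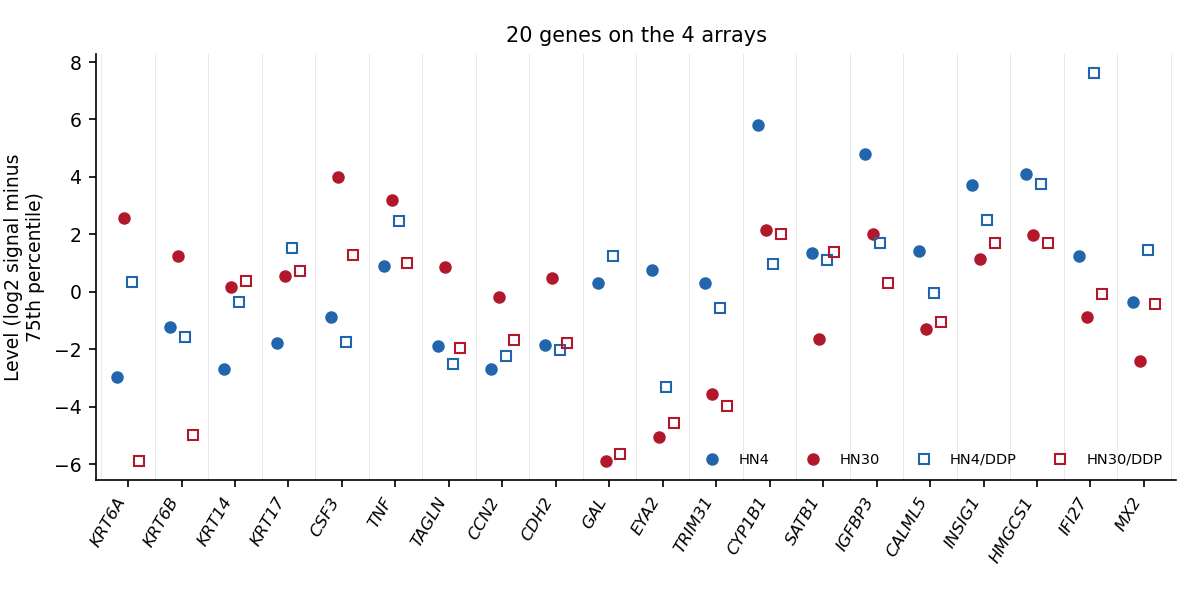
Levels of 20 genes named in the text (log2 signal minus the 75th percentile of the array) on the arrays of HN4 (filled blue), HN30 (filled red), HN4/DDP (open blue) and HN30/DDP (open red), 1 array each with no replicate. GAL and TRIM31 are low in HN30 and in HN30/DDP alike, and CYP1B1 is highest in HN4. KRT6A is the highest of the 4 in HN30 and the lowest in HN30/DDP.

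GAL, which encodes the neuropeptide galanin, was at 0.32 in HN4 and -5.87 in HN30, where it was dim, so that it was at least 30.9-fold higher in HN4. It was at 1.23 in HN4/DDP and dim at -5.63 in HN30/DDP, so that both HN4 lines were high and both HN30 lines dim. Its probe lies on hg19 chromosome 11 from 68458533 to 68458592. EYA2, a transcriptional coactivator and phosphatase of organ development, was at 0.76 and -5.06, at least 41.8-fold higher, and was low again in HN4/DDP (-3.31). ST6GAL1, which adds alpha2,6-linked sialic acid to glycoproteins, was at least 12.4-fold higher on one of its probes, and ST6GALNAC3, a sialyltransferase of gangliosides, at least 10.5-fold. SERPINB9, an inhibitor of granzyme B, was at least 11.1-fold higher and SRGN, the granule proteoglycan serglycin, at least 8.58-fold. SMIM5 was at least 5.30-fold higher. LMO3 was at least 8.28-fold higher but lay on an uneven spot. ID4 was at least 3.89-fold higher. Transcription factors of development gave 4 of 80 genes higher in HN4 and none higher in HN30, namely EYA2, SATB1 (1.34 in HN4 and -1.64 in HN30), IRX4 (3.52 and 1.06) and ID4. Of 39 HOX genes 34 were well above background, and none was counted. Over all genes measured, 1.09% were counted as higher in HN4 and 0.538% as higher in HN30.

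CYP1B1, a cytochrome P450 that oxidises steroids and aromatic hydrocarbons, was at 5.80 in HN4 and 2.15 in HN30, a difference of -3.66 (scanner SD 0.20), or 12.6-fold higher in HN4. Its second probe differed by -3.39, and the level was 0.98 in HN4/DDP and 2.03 in HN30/DDP, so that HN4 stood apart from the other 3 arrays. Its spot in HN30, the dimmer array, was uneven. UGT1A8, a glucuronosyltransferase, differed by -3.01 and UGT1A6 by -2.86, but the UGT1A transcripts share their last exons and these probes may read the same molecules. IGFBP3, the main carrier of insulin-like growth factors in serum, was at 4.81 in HN4 and lower in HN30 by a difference of -2.81 (scanner SD 0.07), with 1.69 in HN4/DDP and 0.31 in HN30/DDP. EPHA4, an ephrin receptor, was at -1.40 and -4.13. TRIM31, a ubiquitin ligase, was at 0.30 and -3.56, GNB4, a G protein subunit, at 0.04 and -3.75, and PGCKA1, named C4orf19 on the array, at 0.90 and -3.36. C1orf21 differed by -3.88 and CLEC2B by -3.13. NEURL1B was at 0.61 and -2.38, and EPB41L4A at -1.06 and -4.05. A second probe differed by -0.05 for NEURL1B and by -1.16 for EPB41L4A. Smaller differences toward HN4 were those of TLR4 (-2.18), BMF, a pro-apoptotic member of the BCL2 family (-2.13), and LAPTM5 (-2.16), but second probes of TLR4 and BMF, well above background on both arrays, differed by -1.14 and -0.70. CTSS, a lysosomal protease of antigen presentation, was dim in HN30 and at least 1.16-fold higher in HN4.

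Cholesterol and fatty acid synthesis had the median furthest from 0 among the lists other than cell type markers, toward HN4. When sterols are scarce, the transcription factor SREBP-2 is released from the endoplasmic reticulum and drives the genes of the mevalonate pathway, together with NF-Y, which binds the CCAAT box. INSIG1 holds SREBP in the endoplasmic reticulum and is itself a target. The promoters of INSIG1 and HMGCS1, members with some of the largest differences, are shown with CCAAT in capitals on either strand, from RefSeq on GRCh38.p14, 250 bases before to 50 after the start (chr7:155297628-155297927, plus strand, and chr5:43313363-43313662, minus strand, the first of its 2 promoters that held a match).
INSIG1: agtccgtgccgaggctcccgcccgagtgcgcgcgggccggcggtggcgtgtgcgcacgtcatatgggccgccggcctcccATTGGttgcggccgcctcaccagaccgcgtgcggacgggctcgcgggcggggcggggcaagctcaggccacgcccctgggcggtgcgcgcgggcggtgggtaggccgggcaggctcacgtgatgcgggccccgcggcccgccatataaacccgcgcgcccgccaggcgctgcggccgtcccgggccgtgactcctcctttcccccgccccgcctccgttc
HMGCS1: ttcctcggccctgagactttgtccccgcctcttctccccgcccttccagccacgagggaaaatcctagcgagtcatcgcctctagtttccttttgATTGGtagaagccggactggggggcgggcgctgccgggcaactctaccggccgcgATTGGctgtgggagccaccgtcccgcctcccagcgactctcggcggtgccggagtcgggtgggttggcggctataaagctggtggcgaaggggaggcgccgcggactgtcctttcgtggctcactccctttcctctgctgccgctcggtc
Of the 29 genes of the list 22 had a promoter in the RefSeq table used here, and 16 of these held CCAAT or its complement, beside 39.7% of all 27305 genes with a promoter there. A match of 5 letters is a description and not a binding site.

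All 29 genes of this list were well above background, 27 of them had a negative difference, and the median was -1.03, beside 0.03 for all genes well above background. Higher in HN4 past the threshold were 3 genes, of which INSIG1 and HMGCS1 are given here, and with a threshold of 1 there were 16. The same thresholds counted 1.09% and 4.2% of all genes measured as higher in HN4. INSIG1 was at 3.71 in HN4 and 1.14 in HN30, a difference of -2.58 (scanner SD 0.20). HMGCS1, the enzyme that makes HMG-CoA, was at 4.11 and 1.99. The enzymes DHCR7 (-1.59), SQLE (-1.58), LSS (-1.48), IDI1 (-1.43), MVK (-1.40) and FDFT1 (-1.27) and the sterol carrier STARD4 (-1.59) followed. SREBF2, which encodes SREBP-2, differed by -1.24. FASN, which encodes fatty acid synthase, differed by -0.65, the desaturase gene FADS1 by -0.61 and SCD by -0.27. Only ME1 (0.24) and PMVK (0.28) were brighter in HN30. Over the settings tried the median of the list lay between -1.19 and -0.93. Between the resistant lines, HN30/DDP minus HN4/DDP, the median of the same genes was -0.50. HMGCS1 differed there by -2.08.

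Interferon-stimulated genes also leaned to HN4. Type I interferon activates a complex that holds STAT2 and IRF9 and binds a response element whose core reads GAAANNGAA. The promoters of IFI27, which had the largest difference in the list, and of BST2, an antiviral membrane protein, are shown with matches to that core on either strand in capitals (chr14:94110486-94110785, plus strand, and chr19:17405581-17405880, minus strand, RefSeq on GRCh38.p14, for IFI27 the first of its 2 promoters that held a match). Overlapping matches run together.
IFI27: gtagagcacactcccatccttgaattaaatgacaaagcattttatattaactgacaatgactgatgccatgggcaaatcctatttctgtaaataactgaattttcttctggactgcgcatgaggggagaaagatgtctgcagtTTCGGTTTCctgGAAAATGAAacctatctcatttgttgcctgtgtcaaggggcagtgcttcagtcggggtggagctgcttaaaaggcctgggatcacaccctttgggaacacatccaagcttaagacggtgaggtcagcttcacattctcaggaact
BST2: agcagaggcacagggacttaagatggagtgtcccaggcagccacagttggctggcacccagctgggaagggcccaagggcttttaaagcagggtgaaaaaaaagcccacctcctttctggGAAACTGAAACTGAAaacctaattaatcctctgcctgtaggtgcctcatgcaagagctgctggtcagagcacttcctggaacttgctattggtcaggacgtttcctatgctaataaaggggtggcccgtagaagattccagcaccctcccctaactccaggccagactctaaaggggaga
Of the 47 genes of the list 36 had a promoter in that table, and 26 of these held the core, beside 9.86% of all genes.

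All 47 genes were well above background on at least 1 array, 39 had a negative difference, and the median was -0.66, with -0.81 to -0.49 over the settings tried. Counted as higher in HN4 were 4 genes, and with a threshold of 1 there were 12, beside 1.09% and 4.2% of all genes measured. IFI27 was at 1.24 in HN4 and -0.89 in HN30, RSAD2, which encodes the antiviral enzyme viperin, at 2.33 and 0.22, MX2, a GTPase that blocks viral entry to the nucleus, at -0.35 and -2.39, and XAF1, a promoter of apoptosis, at -1.78 and -3.81. A second MX2 probe differed by -0.22. GBP2 (-1.86), BST2 (-1.71) and IFITM1 (-1.50) lay under the threshold. Of the signalling genes, IRF9 differed by -1.27 and STAT2 by -0.79. ISG15 differed by -0.55 and IFIT1 by -0.33, and USP18, which restrains the pathway, was brighter in HN30 by 0.55. In the resistant pair the median was -0.78, with IFI27 at -7.68 and IFITM1 at -3.73. Genes of antigen presentation had a median difference of -0.35 over the 23 of 28 that were well above background, with CTSS the only one counted.

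**Figure D4:**
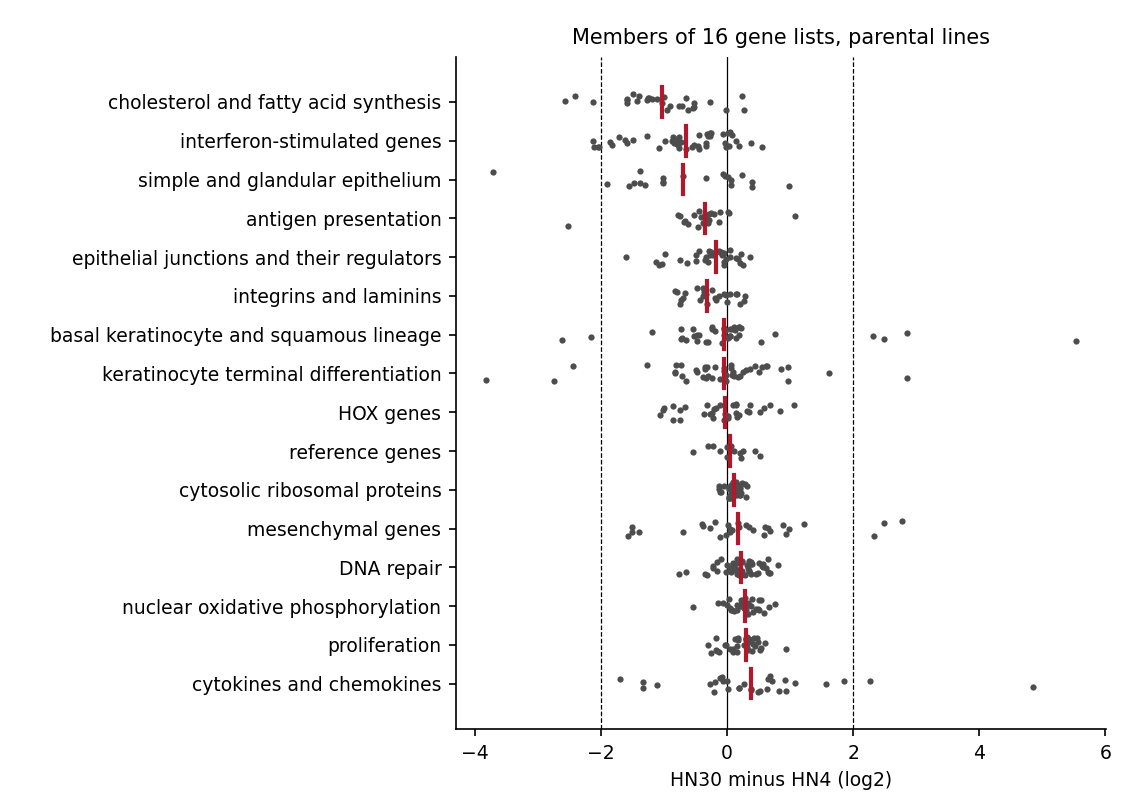
Difference between HN30 and HN4 (log2) for the members of 16 gene lists that were well above background on at least 1 parental array, 1 point per gene, with the list median as a red bar and the threshold of 2 as dashed lines. The points of cholesterol and fatty acid synthesis and of the interferon-stimulated genes lie mostly left of 0, with medians of -1.03 and -0.66, while the reference genes centre on 0.05.

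Most other lists held no counted gene. Proliferation genes had a median of 0.29 with 28 of 36 brighter in HN30, nuclear genes of oxidative phosphorylation 0.28 with 35 of 39, DNA repair 0.23 with 45 of 55, and cytosolic ribosomal proteins 0.12 with 41 of 46. These genes are bright, and among genes well above background in both lines the median difference ran from -0.02 in the dimmer ones to 0.13 in the brightest. The part of brightness in these small shifts was not tested. Reference genes had a median of 0.05. No p53 target was counted, and CDKN1A, the cell cycle inhibitor p21, was at -2.20 in HN4 and -2.05 in HN30. No member was counted among NRF2 targets, glutathione and metallothionein genes, platinum transporters, DNA repair genes, WNT and NOTCH genes, the EGFR family, or genes at loci often gained or lost in this tumour. Over all genes measured only 1.63% were counted, and lists this short can hold none at that share. EGFR differed by -0.44, CCND1 by 0.34, MYC by 0.21 and CDKN2A by -0.11. AREG, a ligand of EGFR (1.47), and NRG1, a ligand of other receptors of the family (1.93), were brighter in HN30.

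Several genes of the pathway on which the study of resistance turned lay under the threshold in the parents. CREB5, a transcription factor of the CREB family, was dim on both arrays, at -7.03 in HN4 and -6.92 in HN30. TOP1MT, the mitochondrial topoisomerase, was at 4.64 and 4.70. The kinase genes AKT1 (3.30 and 3.56) and AKT2 (1.65 and 2.49) did not pass. EGF and CCND2 were dim on both arrays. NOS3 differed by -0.18, and JAK3 was at -1.17 and -2.17, while its second probe, well above background in both lines, differed by -0.04.

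Of the genes counted, 73 of the 225 higher in HN30 and 140 of the 456 higher in HN4 had a RefSeq messenger RNA as the target of their probe, beside 17469 of all 41786 genes measured. On even spots these were 48 of 97 and 119 of 344. The others include noncoding transcripts and targets of no known class. The noncoding RNA named here with the most probes was LINC01021, a long intergenic RNA of chromosome 5, which had 6 probes. Those well above background in both lines differed by -4.45 and -3.36, 3 more were well above background in HN4 only, and 1 was dim in both. LINC01116, near the HOXD cluster on chromosome 2, was at least 11.9-fold higher in HN4. LINC01213 differed by -3.62 and SATB1-AS1, the antisense neighbour of SATB1, was at least 3.82-fold higher in HN4, the same direction as SATB1. STARD4-AS1, next to the sterol gene STARD4, was at least 2.25-fold higher in HN4, and LINC01530 at least 2.17-fold. Toward HN30, MIR155HG, the host of miR-155, was at -3.67 in HN4 and -1.62 in HN30. Only noncoding genes with LINC names or names ending in -AS1 or HG were ranked. The 6 of them highest by difference (LINC01020, LINC01695, LINC01419, RUFY1-AS1, LINC01687 and LINC02249) all lay on uneven spots. So did MIR670HG, LINC00457 and LINC00575 on the HN4 side.

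By position on the chromosomes the parental lines were nearly level, and the 3 lowest windows lay on chromosome 5. The 24858 genes on autosomes that were well above background on at least 1 parental array fell into 281 windows of 10 Mb with at least 20 genes (hg19), and 264 of these had a median difference within 0.2 of 0. The SD of the window medians was 0.10, beside 0.13 (HN4 and HN30/DDP) to 0.19 (the resistant lines) for the other pairs of arrays. The lowest medians were those of chromosome 5 from 40 to 50 Mb, -0.51 over 46 genes, and from 30 to 40 Mb, -0.36 over 61 genes. The window from 0 to 10 Mb of the same chromosome was next, at -0.30. Then came chromosome 13 from 30 to 40 Mb (-0.27, with 7 genes counted as higher in HN4), chromosome 21 from 10 to 20 Mb (-0.25), chromosome 9 from 40 to 50 Mb (-0.21) and chromosome 5 from 10 to 20 Mb (-0.20). By whole chromosome all medians lay between -0.03 and 0.08, with chromosomes 13 and 21 at -0.03. Over its first 50 Mb, which hold the short arm and the centromere, 167 of 236 genes (70.8%) were brighter in HN4 and the median was -0.32, against 0.06 over the rest of the chromosome and 0.03 on the other autosomes. In the resistant pair the same genes had a median of -0.17, beside 0.08 on the other autosomes. The highest windows were those of chromosome 11 from 130 to 140 Mb (0.28) and chromosome 6 from 20 to 30 Mb (0.27).

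HMGCS1 (hg19 chromosome 5, 43290117 to 43290176) and the transcript lnc-AC114947.1.1-1, whose probe starts at 43290876, were the genes counted as higher in HN4 in the lowest window. In the next, DKFZP547J0410 (-2.48) was higher in HN4, and ENST00000511840 and the unnamed probe A_33_P3251916 were higher in HN30 on uneven spots. Among the other counted genes of these 50 Mb, IRX4 and LINC01021 were higher in HN4, and CDH12 and, on an uneven spot, LINC01020 were higher in HN30. LIFR, the leukaemia inhibitory factor receptor of the same region, was dim in HN30 and at least 1.88-fold higher in HN4. The genes counted in the window of chromosome 6 went both ways. lnc-NRSN1-2, lnc-CDKAL1-1 and lnc-C6orf100-3 were higher in HN4, with differences of -2.75, -2.08 and -2.41, as was the unnamed probe A_33_P3220994 on an uneven spot, and XLOC_l2_012432 and OR12D2, an olfactory receptor, were higher in HN30 on uneven spots. No array here measures DNA, so the copy number of the region was not tested.

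**Figure D5:**
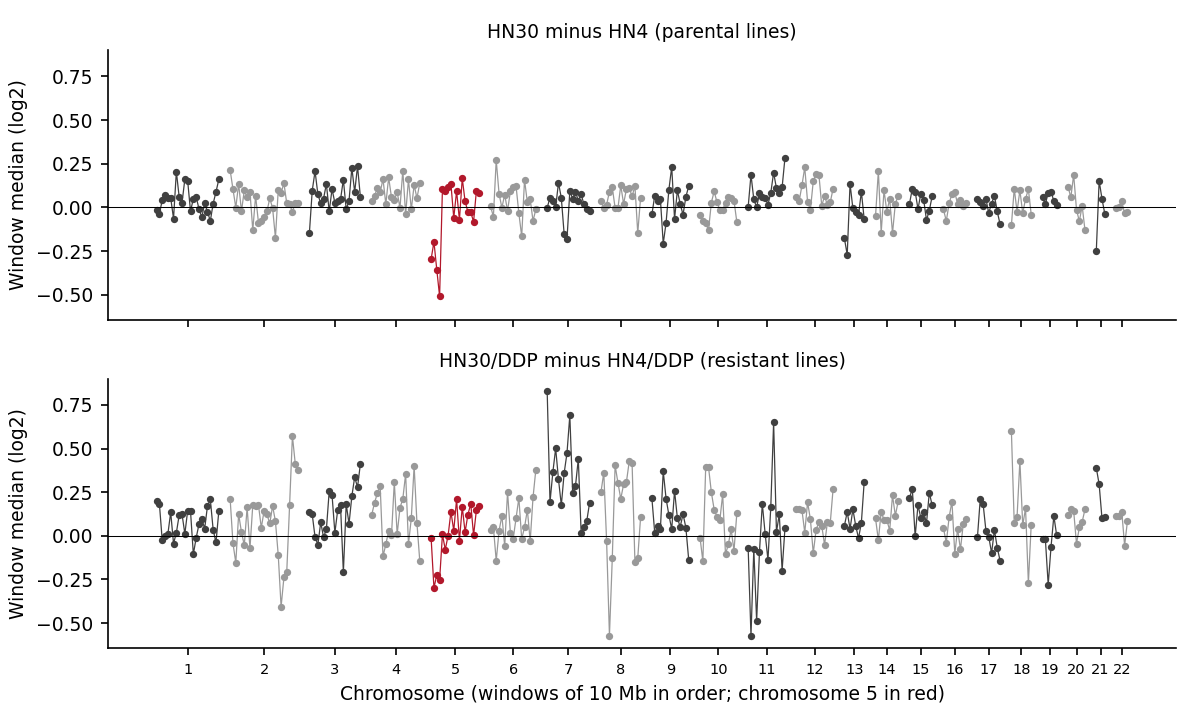
Median log2 difference of the genes in each 10 Mb window, with windows in order along chromosomes 1 to 22 (x axis), for HN30 minus HN4 (upper panel) and HN30/DDP minus HN4/DDP (lower panel). In the parental pair all windows lie between -0.51 and 0.28 and the lowest are on chromosome 5 (red), while the resistant pair has a wider spread.

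Few of the differences between the parents were also present between their resistant derivatives, which were measured on separate arrays. HN30/DDP was higher than HN4/DDP past the threshold for 1587 genes (3.8%) and lower for 696 (1.67%). In the same direction in both pairs were 62 genes, 9.10% of the 681 counted between the parents and 2.72% of the 2283 between the resistant lines, and 64 genes went in opposite directions. On even spots the numbers were 47 and 47 of 441. Across the 21414 genes well above background on all arrays, the differences of the pairs correlated with r = -0.15, a correlation across genes given as a description. Among the genes that kept their direction and were well above background on all 4 arrays were TRIM31 (-3.86 between the parents and -3.41 between the resistant lines), SCEL (-2.44 and -4.46), IRX4 (-2.46 and -6.20), IFI27 (-2.13 and -7.68) and HMGCS1 (-2.12 and -2.08), all lower in the HN30 lines, and CSF3 (4.86 and 3.03) and TFF2 (2.92 and 5.55), higher in them. For others an array was dim and only a bound can be given. GAL was dim in both HN30 lines, at least 30.9-fold higher in HN4 and at least 72.2-fold higher in HN4/DDP. MYO3B was dim in both HN4 lines, at least 10.1-fold higher in HN30 and at least 18.5-fold higher in HN30/DDP, and BMERB1, dim in the same lines, at least 3.82-fold and 47.9-fold. MUC20 was dim in HN30 alone, and PABPC4L in HN4/DDP alone. These were chosen from the genes counted in both pairs after their values were seen.

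A fit with a residual is possible only if each line is taken over its parental and its resistant array, 2 arrays against 2, with the state blocked. The 2 arrays of a line are different states and not replicate cultures. The residual then has 1 degree of freedom for each gene, which is the change of the line difference between the states. Variation between cultures of the same line and state is not measured. At an adjusted p of 0.05, limma called 0 of 28506 genes (0%), the smallest adjusted p was 0.997, and 627 genes had an unadjusted p under 0.05 where chance gives 1425. GAL came lowest, at -6.53 (standard error 0.37, limma adjusted p = 0.997), lower in HN30 in 2 of 2 states. With median scaling in place of the 75th percentile limma called 16 genes, and 0 under every other setting tried. On simulated data with the spread of each gene, the fit called 0% of 200 genes changed by 3 (log2). A count of 0 therefore does not show that the lines are the same.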

How the data were processed

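Total RNA of 4 cell samples was labelled with Cy3 and hybridised to 1 one-colour Agilent SurePrint G3 Human v3 array each. The authors deposited the scanner output, made by Feature Extraction 10.7.1.1 per the labels, whose processed intensity of each spot has had the background subtracted and is not normalized between arrays. The log2 values in the deposited value table, whose quantiles are equal between arrays, served as an alternative. Scanner probe positions are on hg19.

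Of 60901 non-control spots, outliers by the scanner software were dropped, replicate spots were averaged (58201 probes) and 2042 probes of chromosomes X and Y were removed. The level is the log2 processed intensity after subtraction of the 75th percentile on that array. For each gene name the probe with the greatest mean level on the 4 arrays was taken, and 10581 of 41786 genes had several probes. Accessions matched 21014 genes to RefSeq, which gave current symbols. A gene was counted when its difference exceeded 2 (log2), the threshold of the study, and the brighter array was well above background. For genes dim on every probe of the other array, the bound sets the brighter level against the higher of the dim level and the lowest level well above background there, -4.76 in HN4 and -4.63 in HN30. No saturated spot was found. Precision is limited by the number of arrays.

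The genes named were the 10 largest differences each way among RefSeq messenger RNAs well above background on both arrays, the 8 largest bounds each way, up to 4 counted members per list and direction, the markers of other cell types, the genes of the study's pathway, counted genes of the extreme windows, up to 6 noncoding genes each way and up to 5 genes with opposite directions in the resistant pair. The same ranks among even spots, and members of lists given as examples under the threshold, were added after the values were seen. The members and the 40 gene lists were chosen with earlier results of these data known. Group names come from the labels, and each group had 1 sample.

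Differences over both states were fitted with limma 3.58.1 in R 4.3.3 (eBayes with a trend, Benjamini-Hochberg adjustment). The fit was also run on simulated data in which 200 of 28506 genes were changed by 3 (log2). It called 100% of these, and 9 unchanged genes, when all genes had an equal spread. With the spread of each gene it called 0% of them. Other steps used Python 3.11.15, pandas 2.3.3 and numpy 2.4.6. The alternatives were normexp background correction (offset 50), quantile, median or no scaling, the authors' log2 values, dim genes at their bound, a pseudocount of 16, the mean of a gene's probes, outlier spots kept, stricter or looser filters and, added after seeing the data, even spots only. For the lists, the threshold of 1 gives counts and leaves the medians as they are. Values of some genes that the rule names are not reported here.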

Additional observations from a re-analysis of the deposited data

Results flagged for a closer look

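Between the parental lines and between the resistant lines, 64 genes were counted in opposite directions, of which 14 were higher in HN30 but lower in HN30/DDP, and 50 the reverse. They stood out because the contrast of the lines turned its sign with the state. The difference was not tested, since each pair rests on 1 array per line. Most of those named were dim on one of the arrays, so their folds are bounds. KRT6A was higher in HN30 by 5.54, and dim in HN30/DDP, where HN4/DDP was at least 39.3-fold higher. KRT6C, dim in HN4 and in HN30/DDP, was at least 12.6-fold higher in HN30 and at least 3.09-fold higher in HN4/DDP. POU2AF3, named COLCA2 on the array, was dim in HN30 and at least 4.47-fold higher in HN4, and it differed by 4.14 toward HN30/DDP between the resistant lines. GRK3, also dim in HN30, was at least 4.50-fold higher in HN4 and differed by 5.85 the other way between the resistant lines. MAL, a membrane protein of differentiating epithelium, was dim in HN30 and in HN4/DDP, at least 2.92-fold higher in HN4 and at least 11.2-fold higher in HN30/DDP. CHN2 and AF119866 belonged to the same group but lay on uneven spots in HN4. On even spots 47 genes went in opposite directions.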

How the results depend on the processing

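The counts depended mainly on how dim genes were treated. Higher in HN30 were 225 genes and higher in HN4 456, with 62 in the same direction in the resistant pair. In that order, the numbers were 21, 48 and 6 with normexp background correction, 96, 202 and 22 with dim genes at their bound, 78, 124 and 20 with a pseudocount of 16, 48, 146 and 12 when both arrays had to be well above background, 827, 1755 and 363 with a threshold of 1, and 73, 140 and 34 for RefSeq messenger RNAs alone. The stricter settings test fewer genes or shrink dim differences by construction. On even spots 97 genes were higher in HN30, and on even spots well above background on both arrays 35 and 130. The share of counted genes higher in HN30 was 33.0%, and no change of scaling moved it by over 10 percentage points (26.8% to 38.3%), though no scaling moved the median of all genes from 0.10 to -0.06 and median scaling to 0.20. None of the counted genes named turned its direction under the settings tried. Of 918 checks on named genes under the alternatives, 251 were marked as moved from the main result. Over all measured members, 2 lists other than markers had a median beyond 0.5 in size, 1 with normexp and 3 when only genes well above background on both arrays were kept. The lowest window median was -0.51, and -0.34 with normexp. The limma fit called 0 genes, 16 with median scaling and 0 under the other settings. No paired analysis was possible within the parental comparison, because each group holds a single sample with the replicate number 1 and replicate numbers pair no samples there. The limma fit pairs the lines within a state, and it also called 0 genes without that block.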
